A study of Mus musculus with 6 samples.

Results

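Growth hormone signalling through the JAK-STAT pathway was described in mouse liver for 10 genes, chosen by name from the 54232 genes of the count table: the receptor gene Ghr, the kinase genes Jak1 and Jak2, the transcription factor genes Stat3, Stat5a and Stat5b, and the feedback inhibitor genes Cish, Socs1, Socs2 and Socs3. All 10 were found in the table, and all 10 passed the filter on low counts. The 2 groups were 3 livers of Nogo-/- mice and 3 livers of their wild-type littermates, all aged 8 weeks and fed normal chow. Nogo is encoded by Rtn4, a protein that curves the tubules of the endoplasmic reticulum. The labels name no tissue-specific driver for the deletion and do not give sex, hour of collection or feeding state. Libraries carry the numbers of their labels: wild type 2, 4 and 11, and knockout 1, 2 and 4. The question named in the study's title is how loss of Nogo affects insulin signalling, a pathway that SOCS proteins also restrain.

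Growth hormone, released from the pituitary in pulses, binds a receptor dimer on the hepatocyte that carries the kinase JAK2. JAK2 phosphorylates STAT5A and STAT5B, which enter the nucleus and switch on Igf1 as well as Cish and Socs2, whose products then damp the receptor. In liver STAT5B is the main form, and the pulsed pattern of the hormone in males sets much of the difference between male and female liver. JAK1 and STAT3 serve the receptors of the interleukin 6 family, and STAT3 induces Socs3.

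Among the 9 genes with a start-site window at hand, Cish and Socs3 were the only ones whose windows held the letters TTCNNNGAA, the core that STAT proteins are known to bind, so these stretches are shown. RefSeq windows of 300 bases (250 before to 50 after the start, GRCm38.p6) covered all of the 10 genes but Socs2, 12 windows in all. The letters read the same on both strands. The Cish stretch, chr9:107296559-107296688 on the plus strand, runs from base -100 to base 30 counted from the start, and the Socs3 stretch, chr11:117969466-117969566 on the minus strand, from base -200 to base -100. Capitals mark the matches.
Cish: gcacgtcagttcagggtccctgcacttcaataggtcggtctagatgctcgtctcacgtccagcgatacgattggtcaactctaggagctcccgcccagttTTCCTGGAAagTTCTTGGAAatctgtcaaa
Socs3: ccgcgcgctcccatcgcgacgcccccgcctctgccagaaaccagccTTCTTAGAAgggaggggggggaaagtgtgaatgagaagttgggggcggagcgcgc
Cish held 2 matches, starting at bases 1 and 12, and Socs3 held 1, starting at base -154. Of all 32851 windows of this length, 8.30% held at least 1 match and 0.457% held at least 2. Tandem sites of this kind in the Cish promoter are a known STAT5 target. A match is a description of letters and not evidence of binding in these livers.

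Before the results, the libraries were read as a whole. They held 17568223 to 20902369 counts, and 3 counts corresponded to 0.139 to 0.199 CPM (TMM-scaled counts relative to library size, the unit of all levels below), a floor that covers counting error only. Rtn4 stood at 40.5 to 56.0 CPM in wild type and 4.63 to 8.22 CPM in knockout, so each library matched its label; 17% of its 50-base words lie in the overlapping gene Eml6. The 7 hepatocyte markers in the table summed to 92364 to 111343 CPM in wild type and 79814 to 117031 CPM in knockout. Of these, Serpina1c rose (log2 fold change 1.52) and Cps1 fell (−1.52), so 28.6% were called, beside 17.0% of all tested genes. DESeq2 called 4 of them and limma-voom 3. Mitochondrially encoded genes took 6.17% to 6.90% of the counts in wild type, but 28.6%, 19.7% and 11.8% in knockout 1, 2 and 4. The share was thus higher in every knockout library than in any wild type. A fit with it as a covariate cannot tell it apart from genotype. Markers of other cells moved with genotype as well. In B cells 4 of 6, in T and NK cells 3 of 5 and in neutrophils 3 of 3 tested markers rose, beside 8.76% of all tested genes. The summed marker levels ran from 8.41 to 11.8, 4 to 5.06 and 2.71 to 3.58 CPM in wild type. In knockout they ran from 17.4 to 29.4, 9.15 to 19.5 and 7.16 to 17.5 CPM. In sinusoidal endothelium 5 of 7 markers fell (sum 184 to 241 CPM in wild type, 104 to 173 CPM in knockout), beside 8.29% of all tested genes. Of 6 erythroid markers Hba-a2 rose and Alas2 fell (33.3% called). Of 6 cholangiocyte markers Epcam fell (16.7%, close to the 17.0% over all tested genes). In Kupffer cells 0 of 8 were called by edgeR (0 at an unadjusted p under 0.05, 0 by DESeq2 and 0 by limma-voom). Without knockout 2, however, 3 Kupffer markers were called lower (7.20% of all tested genes called in that fit). Among stellate cell markers edgeR called 0 of 7 (2 at an unadjusted p under 0.05, 0 by DESeq2 and by limma-voom). Among pancreas acinar markers it called 0 of 5 (0 by each of these counts). Wild type 2 was the highest library for all 5 acinar markers. Their sums ran from 1.53 to 57.6 CPM in wild type and from 21.2 to 25.9 CPM in knockout. Without wild type 2 all 5 were called higher in knockout (6.03% of all tested genes called in that fit). Of the markers in the table none was at 0 in every library. The part of these shifts in the results below was not tested, and in whole tissue fewer cells of a type and less RNA per cell cannot be told apart.

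In knockout liver 4 of the 10 genes fell and 0 rose (edgeR, Benjamini-Hochberg adjusted p under 0.05; 1 more gene, Stat5a, was higher at an unadjusted p under 0.05, and DESeq2 and limma-voom called the same 4). The 4 were Cish, a growth hormone target, and Jak1, Stat3 and Socs3, named above with interleukin 6 signalling. Jak1 also serves interferon receptors, and the interleukin 6 receptor genes Il6ra and Il6st did not pass. Of all 13304 tested genes 17.0% were called, 8.76% higher and 8.29% lower, beside 40% of the 10. The median log2 fold change of the 10 was −0.27, against 0.01 over all tested genes. In 5 of the 10 the wild-type and knockout levels did not overlap, against 38.9% of all tested genes. The genes were chosen with earlier results of these data known, so their count is a description.

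**Figure D1:**
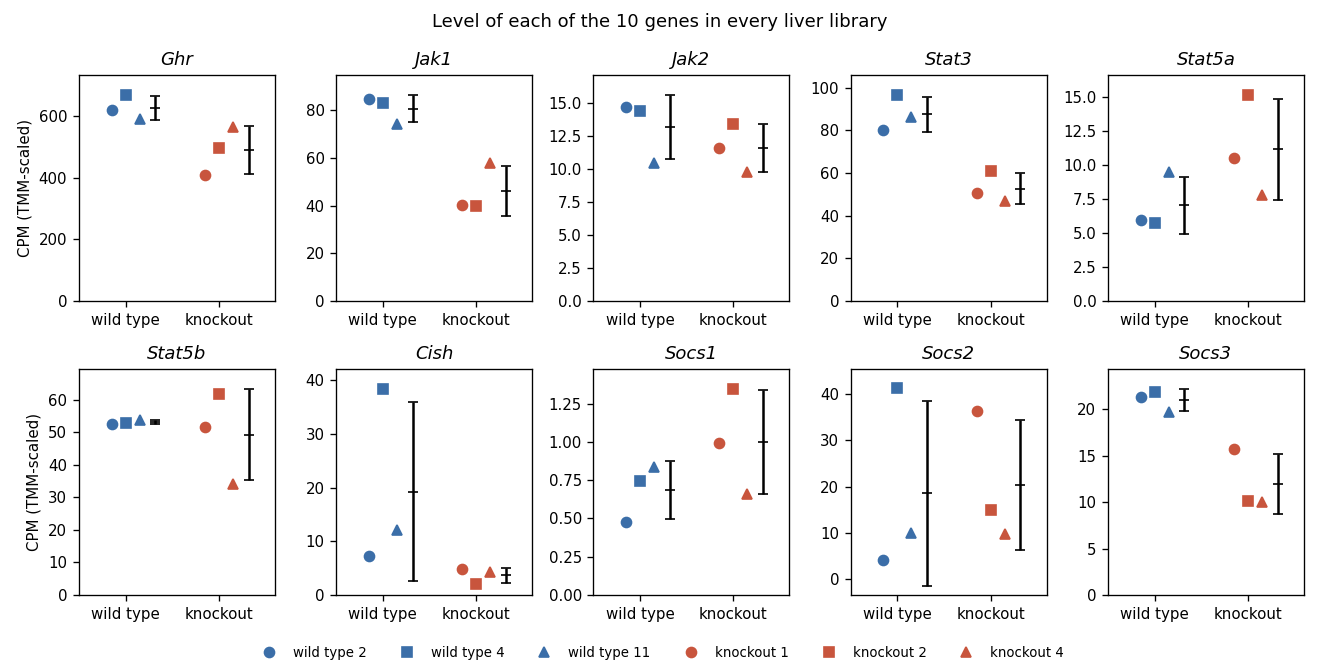
Level of each of the 10 genes in CPM (TMM-scaled; vertical axes start at 0 except for Socs2, whose SD bar reaches below it) in 3 wild-type (blue) and 3 knockout (red) liver libraries; black bars are the mean ± SD of each genotype. Jak1, Stat3, Socs3, Cish and Ghr separate by genotype, while Cish and Socs2 each have 1 wild-type library, wild type 4, far above the other two.

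Ghr encodes the growth hormone receptor and has its locus at chromosome 15, 3317760 to 3583492, minus strand (mm10). It stood at 619, 666 and 589 CPM in wild type 2, 4 and 11, against 410, 495 and 564 CPM in knockout 1, 2 and 4. Every knockout library lay below every wild-type library, with knockout 4 close to wild type 11. Wild type averaged 625 ± 39.1 CPM and knockout 490 ± 77.5 CPM (SD, n = 3 each). The log2 fold change of −0.35 ± 0.19 (SE; 95% interval −0.77 to 0.07) did not pass the test (edgeR adjusted p = 0.216). The lowest Ghr level was in knockout 1, which also had the highest mitochondrial share, 28.6%. With that share as a covariate, which cannot be told apart from genotype, the log2 fold change was 0.01. The part of the share was not tested. Without knockout 4 the log2 fold change was −0.48 and passed (edgeR adjusted p = 0.0474).

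Jak1, the kinase of interleukin 6 and interferon receptors, fell. It has its locus at chromosome 4, 101152367 to 101265282, minus strand. Its levels were 84.6, 83.1 and 74.2 CPM in wild type 2, 4 and 11, against 40.4, 39.9 and 58.0 CPM in knockout 1, 2 and 4. The groups were apart, and knockout 4 lay nearest to wild type. The log2 fold change was −0.81 ± 0.19 (adjusted p = 0.0211), a 1.75-fold lower level. With knockout 4 alone it was −0.47. With the mitochondrial share as a covariate it was −0.41, without a call (edgeR adjusted p = 0.664). Both values were smaller in size by over 1.5 times. The part of the share was not tested.

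Jak2, the kinase bound to the growth hormone receptor (chromosome 19, 29251828 to 29313080, plus strand), showed no such shift. It stood at 14.7, 14.4 and 10.4 CPM in wild type, against 11.6, 13.4 and 9.75 CPM in knockout. The groups overlapped, and the log2 fold change of −0.18 had a 95% interval of −0.65 to 0.28 (adjusted p = 0.571). The interval leaves room for a 1.5-fold fall. The ratio of Jak2 to Jak1 counts, which needs no scaling between libraries, was 0.173, 0.173 and 0.140 in wild type, against 0.287, 0.335 and 0.168 in knockout. Knockout 4 fell inside the wild-type range, and the difference did not pass an exact two-sided permutation test (p = 0.3, where 0.1 is the smallest p that 3 against 3 libraries can give).

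Among the STAT genes Stat3 fell and the STAT5 genes did not pass. Stat5b, Stat5a and Stat3 are neighbours on chromosome 11: Stat5b from 100780731 to 100850724 on the minus strand, Stat5a from 100859351 to 100885169 on the plus strand and Stat3 from 100885098 to 100939540 on the minus strand. The 3' ends of Stat5a and Stat3 overlap, and without strand information reads in that overlap cannot be told apart. Of the 50-base words of Stat5a and Stat5b transcripts, 8.52% and 11% also occur in other genes, nearly all in each other, so their counts carry that uncertainty.

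Stat3, the transcription factor of the acute phase response, stood at 80.0, 96.5 and 86.1 CPM in wild type 2, 4 and 11, against 50.5, 60.9 and 46.8 CPM in knockout 1, 2 and 4. All 3 knockout libraries lay well below the lowest wild type. This was a 1.66-fold lower level (log2 fold change −0.73 ± 0.18, adjusted p = 0.0217). With knockout 4 alone, the knockout library with the smallest mitochondrial share, the value was −0.90. With that share as a covariate it was −0.80, without a call (adjusted p = 0.539). The part of the share was not tested.

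Stat5b, the main growth hormone effector of liver, was nearly constant in wild type at 52.6, 52.9 and 53.7 CPM. In knockout it spread to 51.6, 61.8 and 34.2 CPM, on both sides of the wild-type values. The log2 fold change was −0.11 (95% interval −0.59 to 0.37, adjusted p = 0.755). Without knockout 4 the sign turned, to 0.08.

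Stat5a, the minor form in liver, stood at 5.94, 5.71 and 9.47 CPM in wild type, against 10.5, 15.1 and 7.82 CPM in knockout. The groups overlapped through wild type 11 and knockout 4, and the log2 fold change of 0.67 ± 0.29 did not pass (adjusted p = 0.136). Relative to Stat5b, however, Stat5a was higher in every knockout library. The ratio of Stat5a to Stat5b counts was 0.113, 0.108 and 0.176 in wild type 2, 4 and 11, against 0.204, 0.245 and 0.229 in knockout 1, 2 and 4, a difference of 0.80 on the log2 scale. The groups did not overlap, and the exact two-sided permutation p was 0.1, the smallest this design allows (adjusted p = 0.133 over the 4 ratios computed, all chosen after the values had been seen). Left-out libraries moved the difference between 0.68 and 1.03.

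**Figure D2:**
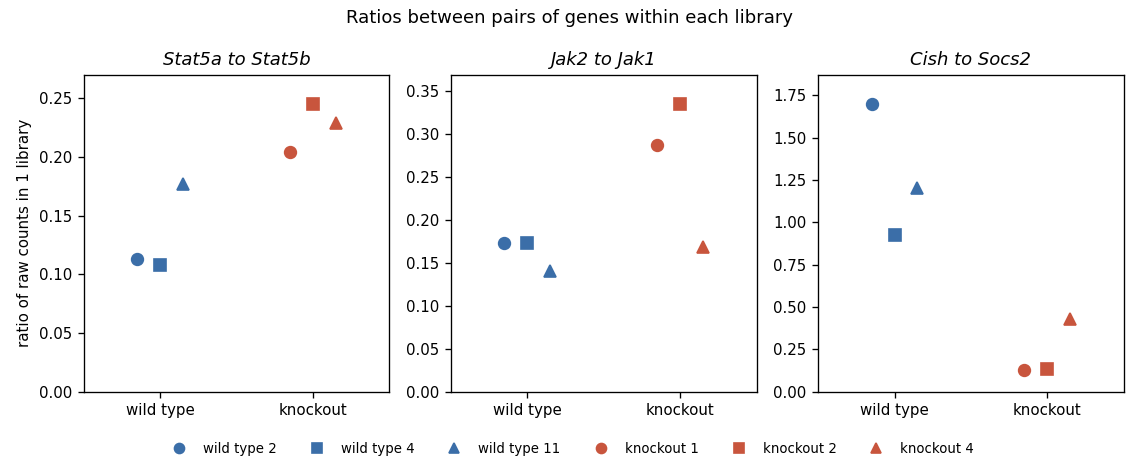
Ratio of raw counts of 2 genes within each library (vertical axes from 0), for Stat5a to Stat5b, Jak2 to Jak1 and Cish to Socs2, in 3 wild-type (blue) and 3 knockout (red) libraries. Stat5a to Stat5b (at most 0.176 in wild type, at least 0.204 in knockout) and Cish to Socs2 (at least 0.928 and at most 0.429) separate the genotypes. For Jak2 to Jak1 knockout 4 (0.168) lies among the wild types.

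Of the feedback inhibitors, Cish and Socs3 fell and Socs1 and Socs2 did not pass. Cish encodes CIS, an SH2 protein that growth hormone induces through STAT5 and that competes for the receptor's docking sites. It has its locus at chromosome 9, 107296026 to 107302784, plus strand. The raw counts were 153, 719 and 262 in wild type 2, 4 and 11, against 72, 38 and 70 in knockout 1, 2 and 4, and the levels 7.27, 38.3 and 12.2 CPM and 4.77, 2.04 and 4.21 CPM. Every knockout library lay below every wild type, and wild type 4 stood far above the other two. The log2 fold change was −2.40 ± 0.56 (adjusted p = 0.0195; 95% interval −3.64 to −1.15). Without wild type 4 it was −1.42 and missed the threshold (adjusted p = 0.0573), as it did without knockout 1 (0.0569) or knockout 2 (0.0745), both adjusted p-values. With knockout 4 alone against the 3 wild types the log2 fold change was −2.19. With the mitochondrial share as a covariate it was −2.46, without a call (adjusted p = 0.569). A processed pseudogene on the opposite strand, Gm17040, overlaps exons of Cish and had 4 to 32 counts of its own. Of the 50-base words of Cish 9.35% occur in other genes, most of them in overlapping Gm17040 and Gm17041.

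Socs2, the other growth hormone-induced inhibitor and the one whose loss gives giant mice, did not follow Cish in knockout. It has its locus at chromosome 10, 95385362 to 95417180, minus strand. Its raw counts were 90, 775 and 218 in wild type 2, 4 and 11, against 550, 278 and 163 in knockout 1, 2 and 4, which gave 4.27, 41.3 and 10.1 CPM and 36.4, 14.9 and 9.81 CPM. In wild type Socs2 and Cish ran in the same order, lowest in wild type 2 and highest in wild type 4. In knockout Socs2 lay inside the wild-type range in all 3 libraries, while Cish lay below it in all 3. The log2 fold change of Socs2 was 0.13 with a 95% interval of −1.39 to 1.66 (adjusted p = 0.908), too wide to say more, and it turned to 1.48 without wild type 4 and to −0.60 without knockout 1. Its order in knockout, from 36.4 down to 9.81 CPM, was also that of the mitochondrial shares, 28.6%, 19.7% and 11.8%, whose part was not tested.

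The ratio of Cish to Socs2 counts sets the 2 genes against each other within a library. They ran in the same order in wild type only, so in knockout the spread of Socs2 enters the ratio. The ratio was 1.70, 0.928 and 1.20 in wild type 2, 4 and 11, against 0.131, 0.137 and 0.429 in knockout 1, 2 and 4. The groups were apart, and wild type 4, highest for each gene alone, had the lowest wild-type ratio. The mean difference was −2.65 on the log2 scale, and −3.21 to −2.35 when any 1 library was left out. The exact two-sided permutation p was 0.1, the smallest possible (adjusted p = 0.133 over the 4 ratios).

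Socs3, the inhibitor that STAT3 induces and that blocks interleukin 6 and insulin signals, fell with little spread in wild type. It has its locus at chromosome 11, 117966079 to 117970047, minus strand. The levels were 21.4, 21.9 and 19.7 CPM in wild type 2, 4 and 11, against 15.7, 10.1 and 9.99 CPM in knockout 1, 2 and 4. The groups were apart, with knockout 1 nearest to wild type. Its level was 1.76-fold lower (log2 fold change −0.82 ± 0.21, adjusted p = 0.0281). With knockout 4 alone the log2 fold change was −1.07. With the mitochondrial covariate it was −1.37, without a call (adjusted p = 0.333).

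Socs1, an interferon-induced inhibitor (chromosome 16, 10782240 to 10785536, minus strand), was barely expressed. It had 10, 14 and 18 counts in wild type, against 15, 25 and 11 in knockout, or 0.475 to 0.836 and 0.662 to 1.34 CPM. At this depth a difference was not detectable (log2 fold change 0.55, 95% interval −0.43 to 1.52, adjusted p = 0.413).

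**Figure D3:**
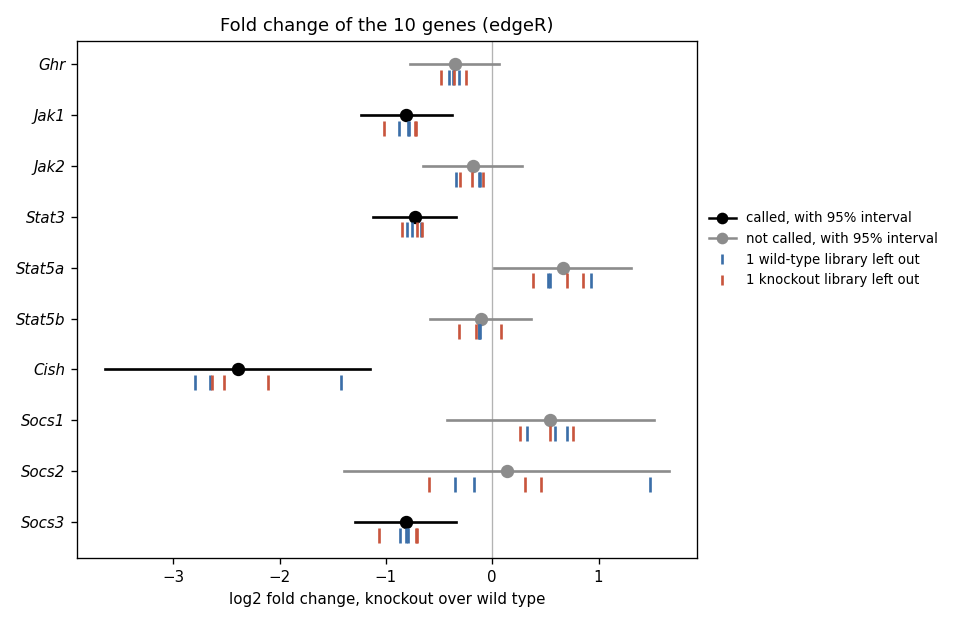
Log2 fold change of the 10 genes, knockout over wild type, with its 95% interval (black: called at an adjusted p under 0.05; grey: not called); short ticks below each point are the values with 1 wild-type (blue) or 1 knockout (red) library left out. The 4 called genes stay below 0 in every such fit, the tick of Cish nearest to 0 (−1.42) is the fit without wild type 4, and Socs2 has ticks from −0.60 to 1.48.

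The 4 calls rested on which libraries were used. All 4 passed without wild type 11 (12.3% of all tested genes called in that fit). In the fits without wild type 2, knockout 1 and knockout 2 only 1 passed, namely Cish (6.03% of genes called), Socs3 (5.90%) and Stat3 (7.20%). Without wild type 4 none passed (4.57%), although 5 of the 10 had an unadjusted p under 0.05 in that edgeR fit. Without knockout 4, 6 passed (29.4%): the 4 and, with it, Ghr lower and Stat5a higher. With knockout 4 alone against the 3 wild types 0.178% of genes and 0 of the 10 were called, 4 of the 10 having an unadjusted p under 0.05. When the mitochondrial share was a covariate, edgeR called 0% of genes and 0 of the 10, 3 of the 10 having an unadjusted p under 0.05. The other tools were not run in these fits. The 4 genes kept their sign in all of them, but the size for Jak1 went from −0.81 to −0.41 with the covariate and −0.47 with knockout 4 alone.

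Levels were compared between genes per kilobase of summed exon length. In wild type Ghr led at 69.0 ± 4.32 CPM per kilobase, followed by Jak1 at 11.2 ± 0.775, Stat5b at 9.58 ± 0.10, Stat3 at 9.19 ± 0.873 and Socs3 at 7.26 ± 0.401 (SD, n = 3 each). Cish (3 ± 2.60), Jak2 (2.62 ± 0.475) and Socs2 (1.95 ± 2.09) did not differ beyond their spread, nor did Stat5b and Stat3. Stat5a stood at 0.987 ± 0.296 and Socs1 at 0.236 ± 0.0647 CPM per kilobase. Ghr and Jak1 at the top and Stat5a and Socs1 at the bottom held their places when the mean transcript length was used instead, while the 6 genes between them changed order. In knockout Cish, at 0.572 ± 0.224 CPM per kilobase, came below Stat5a, at 1.57 ± 0.519.

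Genes whose level ran most like that of each called gene over the 6 libraries were listed by Pearson r of log2(CPM + 0.5). For Cish they were Pde4b (r = 0.993), Rgs3 (0.986) and Nup54 (0.981), and 15 tested genes had an r over 0.95. Pde4b, a phosphodiesterase that breaks down cyclic AMP, followed the Cish order through wild type 4, with 7.65, 15.7 and 9.43 CPM in wild type, against 6.42, 3.76 and 5.78 CPM in knockout. Socs3 ran most like Zfp326 (0.989), Pea15a (0.988) and Mylip (0.988), with 39 genes over 0.95, and Stat3 most like Sh3pxd2a (0.995) and Neo1 (0.993), with 85. For Jak1 they were Fto, Ttc3 and Dld, each at 0.999 or above after rounding, with 741 genes over 0.95, so its pattern was a common one in these libraries. The 6 points fall into the 2 genotypes, and these r values are descriptions.

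Wild type 4 stood apart in Cish, Socs2 and Onecut1 and was the lowest library for Bcl6, genes picked after their values had been seen. Onecut1, the transcription factor HNF6 that a growth hormone pulse induces, stood at 1.61, 46.3 and 2.14 CPM in wild type 2, 4 and 11, against 2.05, 1.29 and 2.11 CPM in knockout 1, 2 and 4. It was thus high in 1 of the 6 livers. Bcl6, a repressor that growth hormone lowers and that opposes STAT5, ran the other way, at 54.9, 15.3 and 31.1 CPM in wild type, against 56.0, 49.0 and 50.7 CPM in knockout. The difference between wild type 4 and the mean of the other 2 wild types, on log2(CPM + 0.5), was 4.31 for Onecut1, the largest among 13304 tested genes. It was 2.55 for Socs2 (place 4 from the top) and 1.97 for Cish (place 9), and −1.40 for Bcl6 (place 18 from the bottom). For Bcl6 wild type 2 lay about as far out the other way, at 1.31 above its other 2 wild types (place 27 from the top). Other genes among the top 10 were Nr4a1, an immediate early gene, the mitochondrial carriers Slc25a25 and Slc25a30, Wsb1, Ppp1r3g, and Gapdh and Mup10, whose near-identical copies make their counts uncertain. For Mup10 wild type 11 was higher still, at 1316 CPM, against 791 CPM in wild type 4 and 4.94 CPM in wild type 2. Other listed growth hormone targets, Pim1 (−0.24), Igfals (−0.12) and Myc (0.48, place 746), were not among the top 10. Fgf21 (1.02, place 71 from the top) and Cdkn1a (−1.18, place 52 from the bottom) lay further out. Both had low counts in wild type, 9 to 33 for Fgf21 and 11 to 55 for Cdkn1a. In the same library Igf1 (0.05), Stat5b (−0.01), Socs3 (0.09) and Jak1 (0.07) did not stand out. Neither Onecut1 (log2 fold change −3.20, adjusted p = 0.0677) nor Bcl6 (0.62, adjusted p = 0.244) passed between genotypes, and without wild type 4 Onecut1 was at −0.06.

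**Figure D4:**
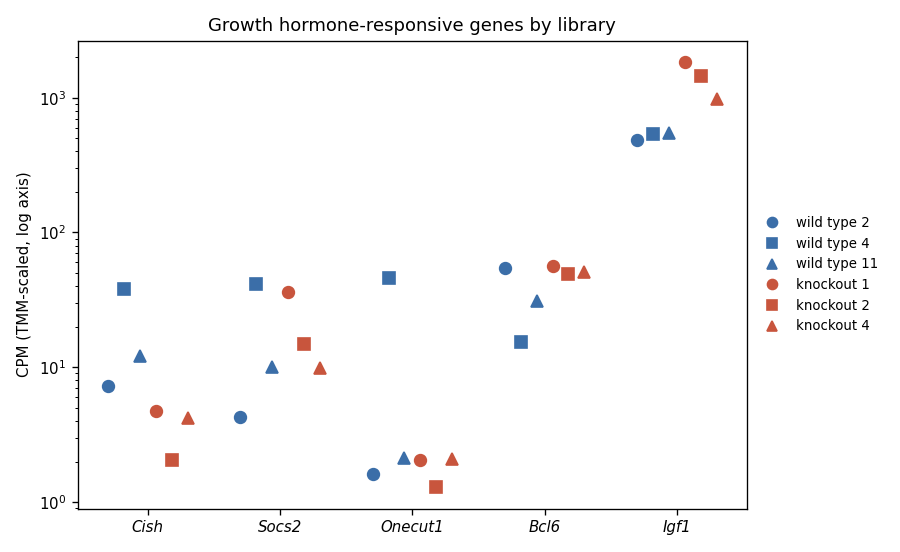
Levels of 5 genes that respond to growth hormone, in CPM (TMM-scaled, log axis), in 3 wild-type (blue) and 3 knockout (red) libraries. Wild type 4 (blue square) is the highest library for Cish, Socs2 and Onecut1 and the lowest for Bcl6, and Igf1 separates the genotypes with knockout higher.

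Targets downstream of growth hormone moved in both directions. Igf1, the circulating growth factor that STAT5B switches on, rose from 522 ± 31.8 to 1423 ± 429 CPM (1.45 ± 0.24, edgeR adjusted p = 0.00697). It was called whichever library was left out, but not with the mitochondrial share as a covariate. Its levels in knockout 1, 2 and 4 were 1843, 1441 and 986 CPM. That was also the order of the mitochondrial shares, 28.6%, 19.7% and 11.8%, whose part was not tested. The ratio of Cish to Igf1 counts differed by −3.53 on the log2 scale. It ran from 0.0149 to 0.0718 in wild type and from 0.00142 to 0.00427 in knockout. Every knockout library was lower for Cish and higher for Igf1 than any wild type, so this ratio had to separate the genotypes. Its exact two-sided permutation p of 0.1, the smallest possible (adjusted p = 0.133 over the 4 ratios), was fixed in advance and adds nothing to the 2 genes. Igfals, which holds IGF1 in the circulating complex, did not pass (0.40, adjusted p = 0.259). Of the 10 listed targets 2 rose and 1 fell (30% called, median 0.66), against 17.0% of all tested genes called. Besides Igf1, the kinase gene Pim1 rose from 16.2 ± 3.09 to 32.4 ± 4.21 CPM. Myc, a driver of cell growth, fell from 16.0 ± 3.53 to 2.45 ± 0.44 CPM (−2.71 ± 0.25, adjusted p = 0.00172).

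The hormone's pulses are known to set the pattern of sex-biased liver genes. Of 16 male-biased genes 3 rose and 0 fell (18.8%, close to the share over all genes; median 0.32): Cyp2u1 (1.39 ± 0.20), Selenbp2 (1.64 ± 0.40) and Sult5a1 (1.53 ± 0.34). DESeq2 called 5 of the 16 (20.6% of all tested genes) and limma-voom 3 (18.1%). The classic male genes Cyp2d9 (0.12) and Hsd3b5 (0.28) did not pass (edgeR adjusted p = 0.768 and 0.460). Of 7 tested female-biased genes 3 fell and 0 rose (42.9%, against 17.0% of all genes), and none of the 3 passed without knockout 1 or without knockout 2: Abcd2 (−1.61 ± 0.41), Cyp2b10 (−1.76 ± 0.46) and Cyp2a4 (−1.58 ± 0.49, adjusted p = 0.0498), the last a member of a family of near-identical genes. The other 9 listed genes were too low to test, Cyp3a41a and Sult3a1 being at 0 counts in all 6 libraries. Wild type 4 touched these counts too, with the highest Abcd2 (24.2 CPM, against 9.93 and 7.57 CPM in the other wild types) and the lowest Selenbp2 (67.0 CPM, against 212 and 117 CPM). Without it Abcd2 (−0.96, adjusted p = 0.0958) and Selenbp2 (1.30, adjusted p = 0.0685) did not pass.

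Of 9 tested adaptors between the receptor and its growth signals, 3 fell and 0 rose (33.3% called, median −0.36), against 17.0% of all tested genes called. The 3 adaptor genes were Ptpn11, Shc1 (−0.65 ± 0.17) and the insulin receptor substrate gene Irs1 (−2.05 ± 0.37). Ptpn11 encodes the phosphatase SHP2 that joins the receptor to the RAS pathway (−0.89 ± 0.21, from 60.9 ± 10 to 32.9 ± 6.80 CPM). Sh2b1, which enhances JAK2, did not pass (0.23, adjusted p = 0.347).

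Of the 5 other JAK and STAT genes tested, 1 rose and 0 fell (20%, close to the 17.0% over all genes; median 0.40). DESeq2 called 2 of the 5 (20.6% of all tested genes) and limma-voom 1 (18.1%). Jak3 (0.12) and Stat6 (0.03) did not pass (edgeR adjusted p = 0.794 and 0.908). Stat2, of the interferon response, rose from 37.4 ± 7.12 to 85.7 ± 25.9 CPM (1.20 ± 0.25, adjusted p = 0.0128). Tyk2 (0.40, adjusted p = 0.197) did not pass.

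Other receptors that use JAKs went both ways, with 1 rise and 2 falls among 17 tested (17.6%, close to the 17.0% over all tested genes, and a median of 0.02). Lepr, the leptin receptor, fell from 8.55 ± 2.83 to 3.03 ± 1.04 CPM (−1.50 ± 0.33), and Il22ra1 fell from 1.77 ± 0.709 to 0.432 ± 0.368 CPM (−2.01 ± 0.58), while Il10rb, a subunit shared by interleukin 10 and interleukin 22 receptors, rose (1.12 ± 0.23). The prolactin receptor Prlr (0.02, adjusted p = 0.947), Il6ra (−0.46, adjusted p = 0.144) and its signalling partner Il6st (−0.47, adjusted p = 0.129) did not pass. Of 16 other inhibitors 1 rose and 0 fell (6.25% called, median 0.09), against 17.0% of all tested genes called. The riser was Pias3, an inhibitor of STAT3 (0.80 ± 0.24, adjusted p = 0.0480). Its call was lost when any 1 library other than knockout 4 was left out.

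Acute phase targets of STAT3 did not move as a block. Of 19 tested 3 rose and 1 fell by edgeR (21.1%, near the 17.0% over all tested genes, and a median of −0.05). DESeq2 called 8 of the 19 (20.6% of all tested genes) and limma-voom 6 (18.1%), so the share depended on the tool. In 10 of the 19 the genotypes did not overlap, against 38.9% of all tested genes. Hamp (1.95 ± 0.52), which encodes hepcidin, Saa3 (1.68 ± 0.43) and Orm1 (0.75 ± 0.21) rose, and Crp, C-reactive protein, fell (−1.12 ± 0.27). In Hamp wild type 11 was the lowest library (160 CPM, against 689 and 548 CPM in the other wild types), and knockout 4 (788 CPM) lay near the wild types. Among the called genes of the related lists named above, Igf1, Irs1, Myc and Cyp2u1 passed whichever library was left out. Each of the others lost its call in at least 1 such fit, Stat2 and Pim1 without wild type 2 or wild type 4.

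**Figure D5:**
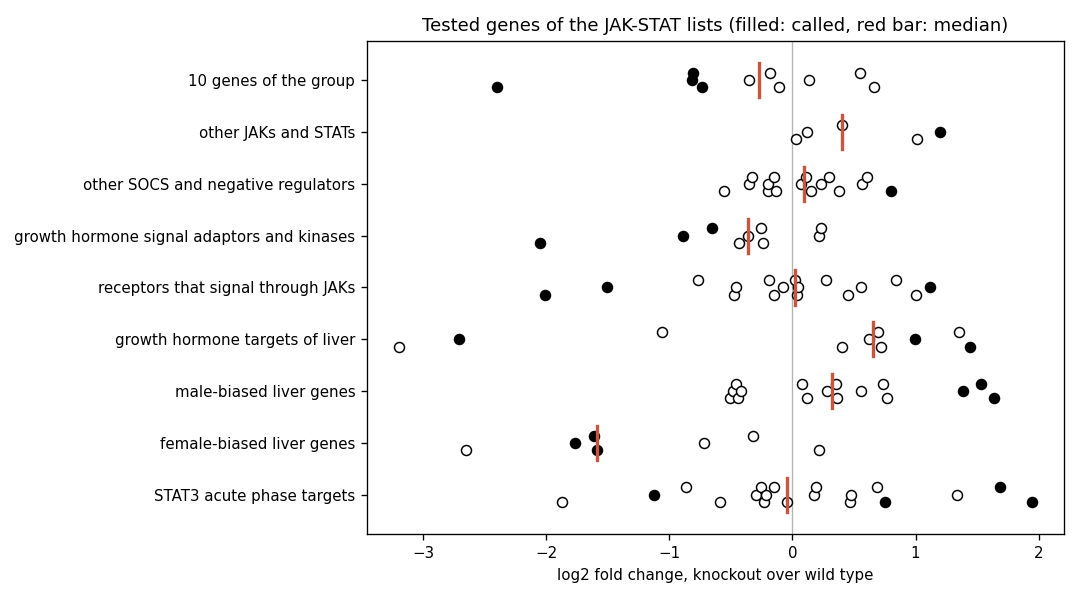
Log2 fold change, knockout over wild type, of each tested gene (circles; filled: called at an adjusted p under 0.05) in the 10 genes described and in 8 related lists; red bars are list medians. Filled circles lie below 0 in the 10 genes and the adaptors, above 0 for other JAKs and STATs, and on both sides for growth hormone targets and acute phase genes.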

How the data were processed

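Livers of 6 mice were profiled by RNA sequencing; the labels' protocols name the SMARTER library kit. The authors deposited raw counts per gene, whole numbers with 1 column per mouse, and the submitters' processing notes name the build mm10. Aligner, counting software, strand setting and treatment of multi-mapping reads: not given in the sources used here. The labels call the samples livers of mice, and p-values measure the spread between the 3 libraries of a genotype. Within-genotype pairs had a chi-square per degree of freedom of 23.1 to 190, so each library was counted once.

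Counts were fitted over all genes in R 4.3.3 with edgeR 4.0.16 (quasi-likelihood F test, TMM scaling, filterByExpr, 13304 genes kept, no covariate, two-sided). The threshold was an adjusted p (Benjamini-Hochberg, all tested genes) under 0.05, and "rose" and "fell" are kept for those. SE is the absolute log2 fold change over the square root of F, and 95% intervals use the total degrees of freedom of edgeR. Per-library differences use log2(CPM + 0.5). Alternatives were other scalings, filters, DESeq2 1.42.0, limma-voom (limma 3.58.1), each library left out, a replicate block and the mitochondrial share as a covariate. GENCODE M21 (mm10) supplied coordinates and lengths, matching 54079 of 54232 identifiers. The code was tested on simulated counts.

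The 10 genes and the lists were chosen with earlier results of these data known. Named genes were the 10, Rtn4, 10 others always included, up to 4 called genes per pathway list and 2 per marker list by smallest p (2 where a pathway list had none), and the 3 genes most like each called member. Cyp2d9, Hsd3b5, Sh2b1, Jak3, Stat6, Cyp3a41a, Sult3a1, Fgf21, Cdkn1a, Gm17040, Gm17041 and the top 10 genes of the wild type 4 comparison were named after their values were seen. Results for some listed genes are not reported here.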

Additional observations from a re-analysis of the deposited data

How the results depend on the processing

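All 4 calls among the 10 genes held under RLE scaling, library totals, DESeq2, limma-voom, both filters and removal of mitochondrial genes. The calls were 0 to 6 when 1 library was left out, and 0 with the mitochondrial share as a covariate and with knockout 4 alone. Over all tested genes edgeR called 2268, 630 to 4046 when 1 library was left out, 0 with that covariate (1146 at an unadjusted p under 0.05) and 25 with knockout 4 alone. In the pathway and cell type marker lists together 41 genes were called, 73 with no filter on low counts, 17 to 66 when 1 library was left out, 0 with the covariate and 0 with knockout 4 alone. The causes were not tested. Library totals moved the median of all genes to −0.16 and the split of calls from 1165 higher and 1103 lower to 690 and 1566. Genes that did not pass changed sign as follows. Socs2 went to −0.10 with library totals, −0.35, −0.18 and −0.60 on leaving out wild type 2, wild type 11 or knockout 1, −0.21 with the replicate block, −1.52 with the covariate and −0.92 with knockout 4 alone. Prlr went to −0.14 with library totals, −0.034 with no filter, −0.08 without wild type 2, −0.13 without knockout 2 and −0.12 with knockout 4 alone. Stat5b went to 0.084 without knockout 4, Ghr to 0.011 with the covariate, and Socs1 (−0.049) and Cd274 (−0.23) with knockout 4 alone. The fold between the highest and the lowest of the 10 genes per kilobase was 293 with summed exon length and 1592 with mean transcript length. The numbers 2 and 4 occur in both genotypes but nothing says they mark a litter, and libraries with the same number did not deviate together (r = −0.05 and 0.06). With them as a replicate block 1686 genes were called, among them 4 of the 10 genes, with Stat5a (0.92, adjusted p = 0.0457) in place of Stat3 (adjusted p = 0.0693), and 51 in the pathway and marker lists. When 1 library was left out, Socs2 ranged from −0.60 to 1.48, Prlr from −0.13 to 0.10 and Stat5b from −0.31 to 0.084. Depth limits Socs1 most, at 10 to 25 counts.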
